A study of Mus musculus with 8 samples.

Results

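The calmodulin-dependent protein kinases (CaM kinases) are serine/threonine kinases that are switched on when calcium-loaded calmodulin binds to them. A list of 10 genes was examined, Camk2a, Camk2b, Camk2d, Camk2g, Camk4, Camk1, Camk1d, Camk1g, Camkk1 and Camkk2, taken as the members of this kinase family by gene symbol. Of these 10 genes, 9 had a probe under their symbol, with 11 probes among 23473 on the array, and all 11 probes were tested among 21150. The level of Camkk1 was not analysed here, since no probe was found under its symbol. Camk2a and Camk1d had 2 probes each, and the probe with the higher mean spot intensity over the 8 arrays stood for the gene.

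Gene expression was measured in the dorsal dentate gyrus of male mice of strain C57BL/6J, 8 to 12 weeks old, on 8 single-colour arrays. Of these, 4 came from wild-type mice (WT) and 4 from mice without Cav3.1 (Cav3.1 KO), the low-voltage-activated T-type calcium channel encoded by Cacna1g. The labels do not say how the Cav3.1 allele was made, nor whether the arrays of a group are separate animals. The p-values therefore cover the spread between arrays alone, part of which may be technical. The question of the comparison was how transcript levels in this tissue differ without the channel.

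In neurons, calcium that enters through channels and NMDA receptors loads calmodulin, which activates the kinases in separate branches. The CaMKII enzymes are assembled from alpha, beta, gamma and delta subunits, and the alpha and beta subunits are abundant at excitatory synapses of the hippocampus, where CaMKII is central to long-term potentiation. CaMKI and CaMKIV are monomeric kinases that need phosphorylation by an upstream CaM kinase kinase for full activity. CaMKIV acts in the nucleus on the transcription factor CREB, and the kinase kinase encoded by Camkk2 also activates AMP-activated protein kinase (AMPK).

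The promoter sequences of 3 members are shown, those of the genes with an unadjusted limma p under 0.05 other than Camk2a, whose promoter is not shown here. Camk2d had the higher level in Cav3.1 KO and Camk2b and Camk1d the lower. Camk1d had 2 windows, and the more upstream one is shown. Each is the 250 bases before a RefSeq transcription start in GRCm38.p6, written 5′ to 3′ on the strand of the gene, and capitals mark matches to the GC box GGGCGG on either strand, with overlapping matches counted.
Camk2d, chr3:126596701-126596950, plus strand: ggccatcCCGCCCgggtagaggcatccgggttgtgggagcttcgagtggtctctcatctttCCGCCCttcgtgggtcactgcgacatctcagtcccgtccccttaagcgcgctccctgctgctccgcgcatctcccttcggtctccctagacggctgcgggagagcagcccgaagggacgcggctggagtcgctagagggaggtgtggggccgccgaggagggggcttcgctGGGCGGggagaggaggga
Camk2b, chr11:6065749-6065998, minus strand: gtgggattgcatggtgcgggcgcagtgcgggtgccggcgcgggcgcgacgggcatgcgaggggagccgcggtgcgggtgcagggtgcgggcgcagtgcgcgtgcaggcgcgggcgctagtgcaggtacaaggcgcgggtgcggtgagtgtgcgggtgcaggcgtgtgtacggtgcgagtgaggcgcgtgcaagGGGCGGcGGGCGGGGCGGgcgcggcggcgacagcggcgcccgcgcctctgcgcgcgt
Camk1d, chr2:5714763-5715012, minus strand: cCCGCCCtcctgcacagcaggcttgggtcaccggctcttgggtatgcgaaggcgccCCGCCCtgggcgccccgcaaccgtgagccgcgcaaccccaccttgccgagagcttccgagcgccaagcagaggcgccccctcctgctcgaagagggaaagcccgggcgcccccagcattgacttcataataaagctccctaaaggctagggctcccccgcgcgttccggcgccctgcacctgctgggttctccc
The promoter of Camk2d held 3 GC boxes, that of Camk2b 3 and the one shown of Camk1d 2, while the other Camk1d window, at chr2:5676047-5676296, held 1. The windows of Camkk1 and Camkk2 held 2 and 1, and those of Camk1 and Camk1g held 0. Of 32851 RefSeq promoter windows of this length, 32.7% held at least 1. The cyclic AMP response element TGACGTCA, the site bound by CREB, matched none of the 8 windows available for 7 of the genes, and 1.55% of all windows held it. Its core TGACG, searched on both strands, was present in 17.8% of all windows and here in 1 window each of Camk1 and Camkk1. The TATA box TATAAA matched none of the 8 windows, against 12.4% of all windows. These counts describe the windows alone.

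The arrays were of similar quality. Mean blank spots lay between 53.0 and 63.4, between 85.4% and 93.0% of probes were detected above the 95th percentile of blank spots, and across probes the lowest and highest correlation between 2 arrays were 0.992 and 0.997. The scanner headers give a slope between scan gains 1 and 3, which was 0.244 to 0.247 on WT replicates 1, 2 and 4 and Cav3.1 KO replicate 1, and 0.235 to 0.236 on WT replicate 3 and Cav3.1 KO replicates 2, 3 and 4. The chip numbers set WT replicate 3 and Cav3.1 KO replicate 4 apart from the other 6 arrays. Scan slope was therefore unevenly spread over the genotypes. The probe for Cacna1g gave 6.43, 6.61, 6.53 and 6.61 in WT and 6.55, 6.43, 6.39 and 6.48 in Cav3.1 KO, in the order of replicates 1 to 4, a difference of -0.08 (SE 0.0508, adjusted p 0.816), or -0.20 after subtraction of the blank level. The values overlapped, and since the sources used here do not place the probe relative to the deleted part, they do not check the genotype.

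Fixed lists of tissue markers were examined. All 11 markers of mature dentate granule neurons were detected on all 8 arrays. Such detection does not identify the tissue, since 19402 of the 23473 probes were kept when detection on all 8 arrays was required. The 5 tested markers of neocortex and the 8 of microglia were detected on all 8 arrays too. The mean of the granule neuron markers was 7.11 to 7.20 in WT against 6.97 to 7.10 in Cav3.1 KO, with 8 of 11 lower. Markers of CA1 pyramidal neurons, also all detected, were lower for 6 of 6, with means of 7.69 to 8.04 in WT against 7.46 to 7.96 in Cav3.1 KO. Markers of thalamus and habenula were higher in Cav3.1 KO for 10 of 11 tested, with means of 6.88 to 7.30 in WT, 7.05 and 7.03 on Cav3.1 KO replicates 1 and 4, and 7.93 and 7.95 on Cav3.1 KO replicates 2 and 3. The twelfth, Tcf7l2, was above the blank level on 1 array only. Other lists differed too. Markers of mossy cells were higher for 5 of 5 tested (6.52 to 6.88 in WT against 6.79 to 7.06). Among them Calb2, which is also in the thalamus and habenula list, differed by 0.63 and the others by 0.06 to 0.29. Markers of microglia were lower for 8 of 8 (7.56 to 7.72 against 7.49 to 7.60). Those of endothelium and pericytes were lower for 6 of 8, without overlap of the means (7.74 to 7.79 against 7.54 to 7.65). In that list Cldn5 differed by -0.79 (SE 0.0922, adjusted p 0.0182) and the other markers by -0.19 to 0.03. Markers of choroid plexus and ependyma were lower for 7 of 7, with means of 7.23 to 8.48 in WT, 7.54 to 8.42 on Cav3.1 KO replicates 1 to 3 and 6.25 on replicate 4. The list means of CA3 pyramidal neurons, neocortex, interneurons, astrocytes and oligodendrocytes differed by -0.06 to 0.11. The part of these cell types in the kinase values was not tested. Fewer cells of a type and less RNA per cell cannot be told apart in these samples.

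Of the 9 CaM kinase genes, 0 passed the test over all probes (adjusted p under 0.05 by limma), where 0.288% of all probes tested passed, 0.199% as higher and 0.0898% as lower in Cav3.1 KO. The groups did not overlap for 2 of the 9, against 4.95% of all probes. Camk2d had the largest difference, 1.26-fold higher in Cav3.1 KO, and Camk2a the next, at 0.813 of the WT level. Camk2b and Camk1d lay on the lower side, at 0.883 and 0.869 of WT, and Camk2g, Camk4, Camk1, Camk1g and Camkk2 had intervals that included no difference. Before adjustment 4 of the 9 genes had a p under 0.05, Camk2a, Camk2b, Camk2d and Camk1d, against 8.1% of all probes. The median difference over the 9 genes was -0.022 and over all probes -0.001, with 4 genes higher and 5 lower. Values are normalised log2 intensities, differences are Cav3.1 KO minus WT on that scale, and folds are taken from them. The offset of 50 used in normalisation makes these differences too small for dim probes, so blank-subtracted differences, taken after removing the mean blank spot of each array, are given beside them for the kinases and for the dimmer probes of related genes. Because probes differ in how well they hybridise, the level of 1 gene is not set against that of another.

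**Figure D1:**
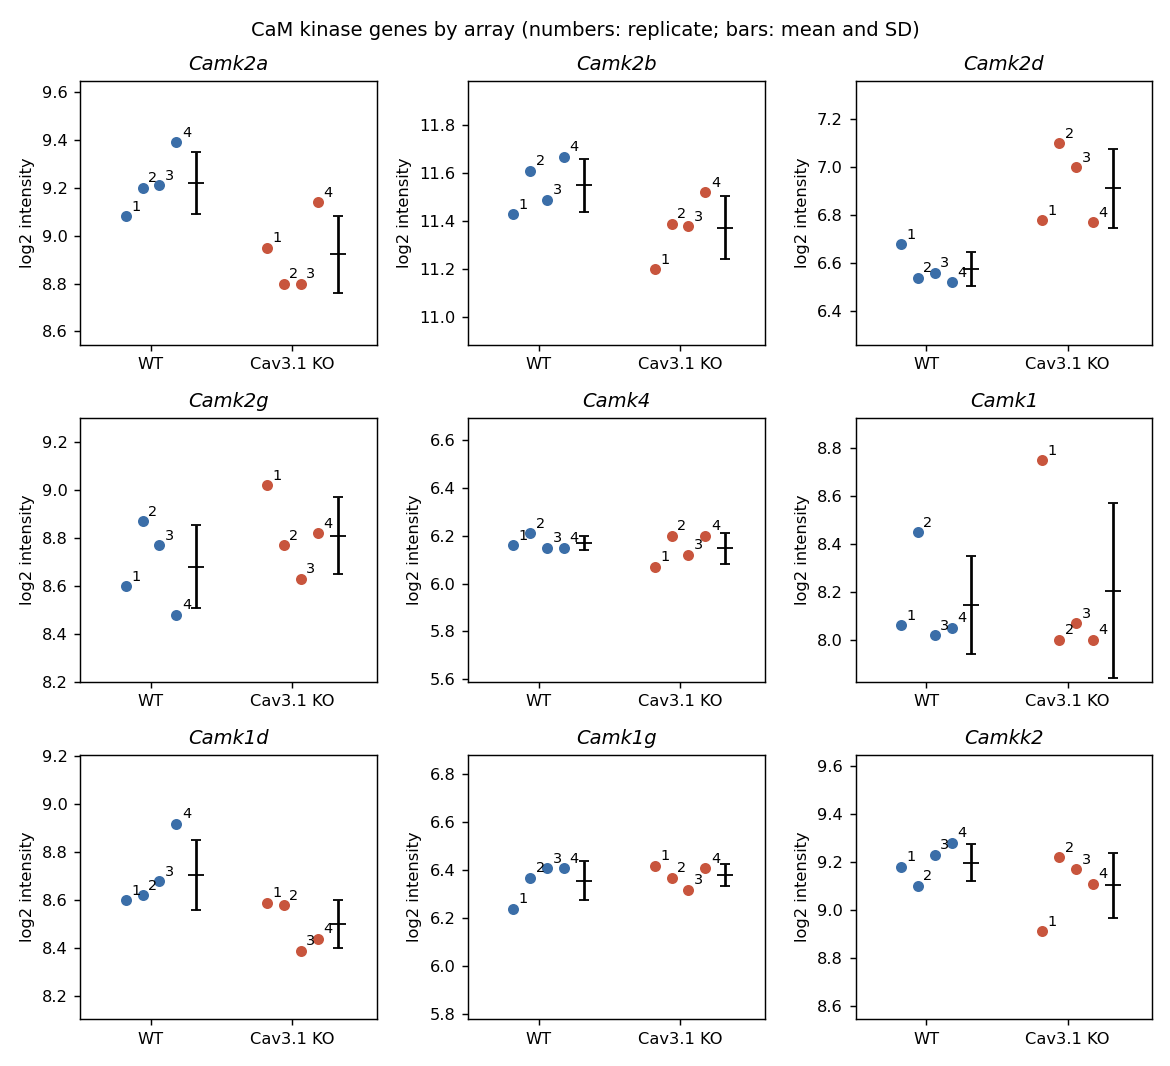
Normalised log2 intensity (vertical axis, each panel spanning the same range of log2 units) of the 9 CaM kinase genes on the 8 arrays, with WT in blue and Cav3.1 KO in red. Points are arrays labelled by replicate, and the black bars are mean and SD (n = 4). Camk2d is higher on all 4 Cav3.1 KO arrays than on any WT array, Camk1d is lower on all 4 with a gap of 0.01 between the groups, and the other genes overlap.

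Camk2a encodes the alpha subunit of CaMKII, the main isoform of forebrain excitatory neurons. Its probe was about 9.58 times as bright as the blank spots. In WT it read 9.08, 9.20, 9.21 and 9.39 on replicates 1 to 4, and in Cav3.1 KO 8.95, 8.80, 8.80 and 9.14. The groups overlapped through Cav3.1 KO replicate 4, which lay above WT replicate 1, and all 4 Cav3.1 KO arrays lay below the WT mean. The means were 9.22 ± 0.127 in WT and 8.92 ± 0.16 in Cav3.1 KO (SD, n = 4), a difference of -0.30 (SE 0.09, 95% interval -0.50 to -0.09, adjusted p 0.359, exact two-sided permutation p 0.0571). The second Camk2a probe was dim, at 1.27 times the blank level, and differed by -0.08 (SE 0.0318, adjusted p 0.587). After subtraction of the blank level the 2 probes differed between genotypes by -0.33 and -0.34, close to each other on that scale. The 2 probes were read on the same arrays and are not replicates.

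Camk2a was set beside the neuronal markers on the same arrays. The mean of granule neuron markers was lower on every Cav3.1 KO array (6.99, 7.03, 6.97 and 7.10) than on any WT array (7.14, 7.20, 7.11 and 7.14). The gap was only between 7.10 and 7.11, and the markers were not alike. C1ql2 and Trpc6 differed by -0.57 each and Calb1 by 0.34, all without overlap, while Pdzd2 and Dsp differed by -0.01 and 0.04. In WT the arrays ranked by Camk2a in the same order as by the mean of CA1 markers, from replicate 1 at 9.08 and 7.69 to replicate 4 at 9.39 and 8.04. In Cav3.1 KO replicate 4 was highest in both, at 9.14 and 7.96, but replicates 2 and 3, lowest in Camk2a at 8.80, had CA1 means of 7.64 and 7.74, above the 7.46 of replicate 1. Those 2 arrays were also the ones with the highest thalamus and habenula markers. Without them the Camk2a difference was -0.18 (adjusted p 0.693), with 2 Cav3.1 KO arrays left. Since they were lowest in Camk2a, leaving them out shrinks the difference whatever their marker values. The part of tissue content in the difference was not tested.

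Camk2b encodes the beta subunit, which binds actin and places the holoenzyme in dendritic spines. Its probe was the brightest of the member probes as a spot, at 49.4 times the blank level. The values were 11.43, 11.61, 11.49 and 11.67 in WT and 11.20, 11.39, 11.38 and 11.52 in Cav3.1 KO. The groups overlapped, and all 4 Cav3.1 KO arrays lay below the WT mean. The difference was -0.18 (SE 0.0746, 95% interval -0.35 to -0.01, adjusted p 0.587), from 11.55 ± 0.107 to 11.37 ± 0.128 (SD, n = 4). By scan slope, the difference was -0.37 among the 4 arrays with the steeper slope, which held 1 Cav3.1 KO array, and -0.07 among the other 4, which held 1 WT array. With scan slope as a block it was -0.22 (adjusted p 0.48). Blank subtraction left the difference at -0.18.

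Camk2d encodes the delta subunit, known best as the main CaMKII isoform of heart muscle. In WT it read 6.68, 6.54, 6.56 and 6.52, and in Cav3.1 KO 6.78, 7.10, 7.0 and 6.77. Every Cav3.1 KO array lay above every WT array, as for 2.42% of all probes in this direction. The mean went from 6.57 ± 0.0702 to 6.91 ± 0.165 (SD, n = 4), a difference of 0.34 (SE 0.0797, 95% interval 0.15 to 0.52). The adjusted p was 0.211 and the exact two-sided permutation p 0.0286, the smallest that 4 against 4 arrays can give. The probe was dim, at 1.95 times the blank level, and after blank subtraction the difference was 0.66 (1.58-fold, 95% interval 0.31 to 1.01, adjusted p 0.272).

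The highest Camk2d values, 7.10 and 7.0, were on Cav3.1 KO replicates 2 and 3, the arrays with thalamus and habenula means of 7.93 and 7.95. On replicates 1 and 4 the thalamus and habenula means of 7.05 and 7.03 lay within the WT range. Camk2d read 6.78 and 6.77 there, above the highest WT value of 6.68. Of that list, Slc17a6 was also higher on every Cav3.1 KO array than on any WT array (difference 0.95, SE 0.3, adjusted p 0.38). The other tested markers of the list overlapped between the groups. Without replicates 2 and 3 the Camk2d difference was 0.20 (SE 0.0516, adjusted p 0.334). Since they were highest in Camk2d, leaving them out shrinks the difference whatever their marker values. By scan slope, the Camk2d difference was 0.20 among the steeper arrays and 0.39 among the others. With scan slope as a block it was 0.30 (adjusted p 0.369). The part of tissue content in the Camk2d difference was not tested.

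**Figure D2:**
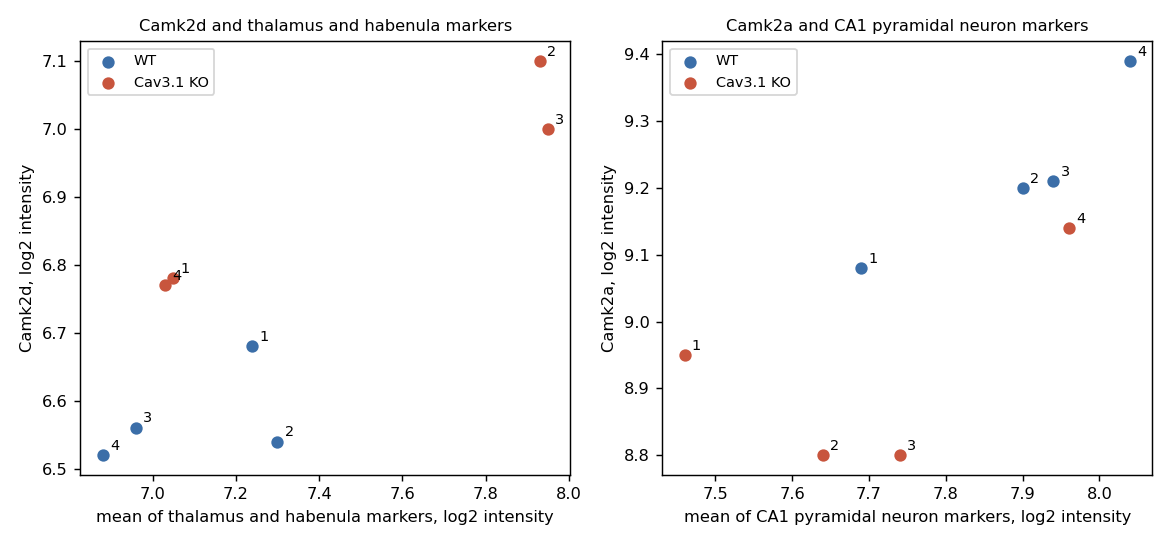
Normalised log2 intensity of Camk2d against the mean of 11 thalamus and habenula markers (left) and of Camk2a against the mean of 6 CA1 markers (right) on each array, with WT in blue, Cav3.1 KO in red and replicate numbers beside the points. Cav3.1 KO replicates 2 and 3 stand at 7.93 and 7.95 on the thalamus and habenula axis with the highest Camk2d and the lowest Camk2a. Cav3.1 KO replicates 1 and 4 lie above all WT arrays in Camk2d at list means within the WT range. The part of tissue content was not tested.

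Camk2g encodes the gamma subunit, which can carry calcium-loaded calmodulin to the nucleus. It read 8.60, 8.87, 8.77 and 8.48 in WT and 9.02, 8.77, 8.63 and 8.82 in Cav3.1 KO, with overlap and a difference of 0.13 (SE 0.105, 95% interval -0.11 to 0.37, adjusted p 0.909), or 0.15 after blank subtraction. It was 0.37 among the arrays with the steeper scan slope and -0.03 among the others. Differences in either direction within that interval could not be told from the spread between arrays.

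The 4 CaMKII genes were also compared with one another within the arrays. For each pair of genes, the log2 difference on an array was set to a WT mean of 0, which removes the probes' baseline. It does not remove the effect of the offset on dim probes, and no blank-subtracted pairs were made. The dim Camk2d probe differed by 0.34, or 0.66 after blank subtraction, while Camk2a differed by -0.30 and -0.33. For Camk2d minus Camk2a the WT arrays then read 0.24, -0.01, 0.00 and -0.23 and the Cav3.1 KO arrays 0.47, 0.95, 0.84 and 0.28, a mean of 0.63 ± 0.313 (SD, n = 4) without overlap. Camk2d minus Camk2b read 0.55, 0.69, 0.60 and 0.23 in Cav3.1 KO, against at most 0.22 in WT. Camk2g minus Camk2a read 0.62, 0.51, 0.36 and 0.22 in Cav3.1 KO, against at most 0.21 in WT. The groups overlapped for the other 3 of the 6 pairs, Camk2b minus Camk2a (Cav3.1 KO mean 0.12), Camk2g minus Camk2b (0.31) and Camk2g minus Camk2d (-0.21). These pairs follow from the single genes above, were added after a look at the values and were not tested. How often pairs of other probes separate the groups in this way was not counted.

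Camk4, the gene of the nuclear kinase CaMKIV, read 6.16, 6.21, 6.15 and 6.15 in WT and 6.07, 6.20, 6.12 and 6.20 in Cav3.1 KO. The groups overlapped throughout, and the difference was -0.02 (SE 0.0363, 95% interval -0.11 to 0.06, adjusted p 0.979). The probe was close to the blank level, at 1.33 times it, and after blank subtraction the difference was -0.10, with an interval from -0.40 to 0.21 that holds falls of up to 0.40 and rises of up to 0.21. By scan slope it was -0.11 among the steeper and 0.02 among the shallower arrays.

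Camk1, which encodes CaMKI alpha, a kinase of axon and dendrite growth, varied more between arrays of 1 genotype than 98.9% of the probes tested. It read 8.06, 8.45, 8.02 and 8.05 in WT and 8.75, 8.00, 8.07 and 8.00 in Cav3.1 KO. WT replicate 2 and Cav3.1 KO replicate 1 stood above the other 6 arrays, which lay between 8.00 and 8.07. The difference was 0.06 (SE 0.182, 95% interval -0.36 to 0.48, adjusted p 0.995), or 0.07 after blank subtraction, and without Cav3.1 KO replicate 1 it was -0.12 (adjusted p 0.857). Both high arrays had the steeper scan slope. The difference was 0.57 (adjusted p 0.493) among the steeper arrays, where Cav3.1 KO replicate 1 is the only one of its genotype, -0.0021 among the others, and 0.28 (adjusted p 0.602) with scan slope as a block.

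Camk1d encodes CaMKI delta. It read 8.60, 8.62, 8.68 and 8.92 in WT and 8.59, 8.58, 8.39 and 8.44 in Cav3.1 KO. The groups did not overlap, as for 2.53% of all probes in this direction, but the gap was only between 8.60 and 8.59. The difference was -0.20 (SE 0.0794, 95% interval -0.39 to -0.02, adjusted p 0.55, exact permutation p 0.0286). Without WT replicate 4, the highest array, it was -0.13 (adjusted p 0.756). The dimmer second probe differed by -0.09 (SE 0.0451, adjusted p 0.68), and after blank subtraction the 2 probes differed by -0.23 and -0.20. Camk1g, which encodes the membrane-anchored CaMKI gamma, read 6.24, 6.37, 6.41 and 6.41 in WT and 6.42, 6.37, 6.32 and 6.41 in Cav3.1 KO, differing by 0.02 (SE 0.0446, 95% interval -0.08 to 0.13, adjusted p 0.985). Its probe was dim, and after blank subtraction the difference was 0.07 (95% interval -0.23 to 0.38).

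Camkk2, the upstream kinase of CaMKI, CaMKIV and AMPK, read 9.18, 9.10, 9.23 and 9.28 in WT and 8.91, 9.22, 9.17 and 9.11 in Cav3.1 KO. Cav3.1 KO replicate 1 was the lowest of the 8 arrays and the others overlapped. The difference was -0.10 (SE 0.0708, 95% interval -0.26 to 0.07, adjusted p 0.882), or -0.11 after blank subtraction.

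**Figure D3:**
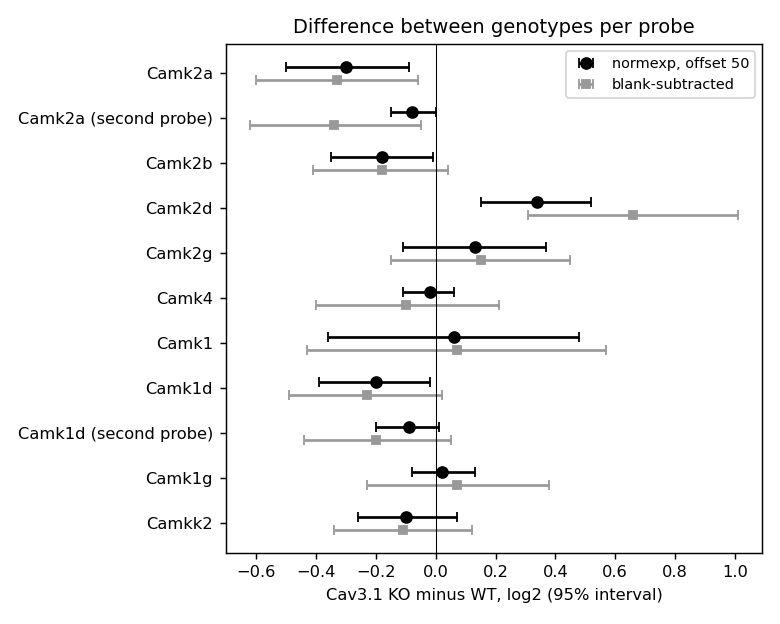
Cav3.1 KO minus WT (horizontal axis, log2) for the 11 CaM kinase probes, with 95% intervals, n = 4 arrays a group. Black circles are normalised values with an offset of 50 and grey squares are blank-subtracted values. The dim probes of Camk2d (0.34 and 0.66) and the second Camk2a probe (-0.08 and -0.34) move most between the scales, and the bright Camk2b (-0.18 on both) does not.

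The genes around the kinases were described from fixed lists, each gene by its brightest probe. None of the 77 list entries tested passed over all probes, 0 higher and 0 lower in each of the 7 lists, against 0.288% of all probes that passed. Among the 77 entries the groups did not overlap for Mylk3, Ppp1r1a, Shank3 and Bdnf, all lower, and for Prkaa2, higher. Each is the gene of smallest p in its list. Of all probes tested, 4.95% had groups that did not overlap, so such separation is not particular to these lists. The list counts depend on the scale. In the deposited value table, where the median over all probes was -0.063, the inhibitors and phosphatases turned to 3 higher and 6 lower (median -0.035), the synaptic partners went to 1 and 14 (-0.192), CREB and its coactivators to 0 and 8 (-0.107), the calmodulin list to 1 and 5 (-0.152), the AMPK list to 5 and 5 (0.015), the relatives to 5 and 9 (-0.084) and the CREB-responsive genes to 10 and 4 (0.083). Among the inhibitors of CaMKII and the phosphatases and phosphatase regulators acting on this pathway, 6 of 9 were higher and 3 lower, with a median difference of 0.01. Ppp1r1a, which encodes protein phosphatase inhibitor 1, read 10.94, 10.77, 10.79 and 10.69 in WT and 10.16, 10.37, 10.56 and 10.41 in Cav3.1 KO. The groups did not overlap, and the difference was -0.43 (SE 0.0871, adjusted p 0.143). Camk2n2, which encodes an endogenous inhibitor protein of CaMKII, read 7.90, 7.64, 7.64 and 7.48 in WT and 8.24, 8.00, 8.06 and 7.73 in Cav3.1 KO, differing by 0.34 (SE 0.118, adjusted p 0.442) with overlap, or 0.45 after blank subtraction. The catalytic subunit gene Ppp1cb differed by 0.16 (SE 0.0814, adjusted p 0.717).

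Of the genes for calmodulin and for proteins that bind it, 2 of 6 were higher and 4 lower, with a median of -0.04. Gap43, a growth-cone protein that binds calmodulin, differed by 0.30 (SE 0.106, adjusted p 0.451), the dendritic calmodulin buffer Nrgn (neurogranin) by -0.17 (SE 0.084, adjusted p 0.71) and Calm2 by -0.06 (SE 0.0789, adjusted p 0.97). Of 15 synaptic partners and substrates of CaMKII, 5 were higher and 10 lower, with a median of -0.049, which was -0.097 after blank subtraction and -0.09 with a smaller offset of 16. The scaffold gene Shank3 read 7.41 to 7.55 in WT against 7.25 to 7.35 in Cav3.1 KO without overlap, a difference of -0.16 (SE 0.0383, adjusted p 0.216), or -0.23 after blank subtraction. Actn2, an alpha-actinin of spines, differed by -0.13 (SE 0.0426, adjusted p 0.403) and the calcium channel beta subunit gene Cacnb1 by -0.17 (SE 0.0558, adjusted p 0.415). Both probes were dim, and after blank subtraction these differences were -0.36 and -0.33.

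Of 8 genes for CREB and its coactivators, 2 were higher and 6 lower, with a median of -0.012, and Creb1 itself differed by -0.16 (SE 0.0596, adjusted p 0.54), Atf1 by -0.05 (SE 0.0248) and Crtc2 by -0.02 (SE 0.0331). After blank subtraction the differences were -0.22 for Creb1, -0.15 for Atf1 and -0.06 for Crtc2, and the list median -0.059. Of 15 CREB-responsive genes, 12 were higher and 3 lower, with a median of 0.078 that stands beside -0.001 over all probes. Among the arrays of steeper scan slope, with 1 Cav3.1 KO array, 8 were higher and 7 lower (median 0.011). Among the shallower, with 1 WT array, 13 were higher and 2 lower (0.121). With scan slope as a block the counts were 10 and 5 (0.109). Bdnf, the neurotrophin gene, lay on the lower side at 7.81, 8.26, 7.89 and 8.04 in WT and 7.70, 7.24, 7.47 and 7.55 in Cav3.1 KO, differing by -0.51 (SE 0.12, adjusted p 0.207) without overlap. Fos read 6.55 to 6.88 in WT against 6.68 to 7.64 in Cav3.1 KO, differing by 0.55 (SE 0.203, adjusted p 0.503), and Nr4a1 differed by 0.41 (SE 0.16, adjusted p 0.555). After blank subtraction Bdnf differed by -0.68, Fos by 0.95 and Nr4a1 by 0.50. The list thus held both directions among its genes of smallest p.

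Among AMPK subunits and other targets of the kinase kinases, 7 of 10 were higher and 3 lower, with a median of 0.025. Prkaa2, the alpha-2 catalytic subunit of AMPK, read 7.31 to 7.42 in WT against 7.44 to 7.49 in Cav3.1 KO without overlap, a difference of 0.11 (SE 0.0304, adjusted p 0.305). Prkab1 differed by 0.11 (SE 0.0559, adjusted p 0.691) and Akt2 by -0.16 (SE 0.0765, adjusted p 0.692). After blank subtraction the differences were 0.16, 0.21 and -0.22, and the list median 0.077. Of 14 relatives of the CaM kinases, 6 were higher and 8 lower, with a median of -0.008. Pnck, which encodes CaMKI beta, differed by 0.13 (SE 0.0496, adjusted p 0.505), the pseudokinase gene Camkv by -0.19 (SE 0.123, adjusted p 0.831), and Mylk3, which encodes a myosin light chain kinase, by -0.08 (SE 0.0307, adjusted p 0.503). The Mylk3 probe was dim, at 1.21 times the blank level. Its groups did not overlap (6.04 to 6.10 in WT against 5.91 to 6.02), and after blank subtraction the difference was -0.48 (95% interval -0.82 to -0.13, adjusted p 0.471).

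**Figure D4:**
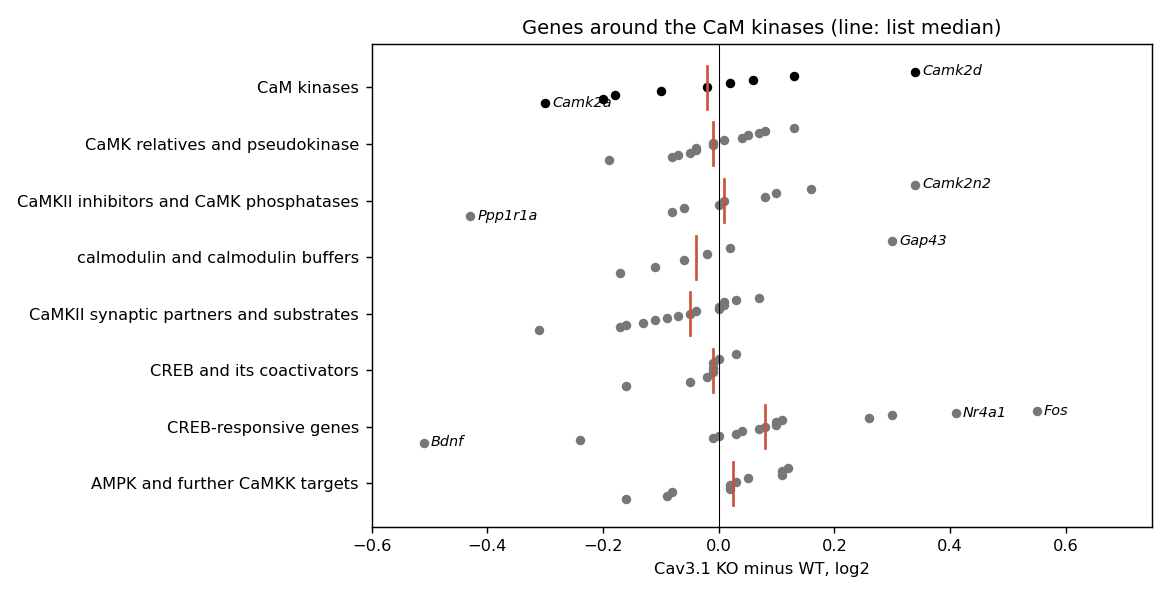
Cav3.1 KO minus WT (horizontal axis, log2) for the 9 CaM kinase genes (black) and the genes of 7 related lists (grey), 1 point a gene, with the list median as a red line. List medians lie between -0.049 and 0.078, and Bdnf at -0.51 and Fos at 0.55 are the outermost genes.

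Genes whose array-to-array pattern was most like that of a kinase were found by Pearson's r of values centred within each genotype, over 8 arrays and 17199 candidate probes, so that a high r is reached by many probes. For Camk2a they were Cpne7 (0.981), Ptpru (0.976) and Ripor2 (0.974), and for Camk2d Ctsl (0.993), Qser1 (0.991) and Zic2 (0.99). For Camk4 they were Lzts3 (0.988), Gpalpp1 (0.976) and Nsf (0.975). For Camk1, added after its uneven values were seen, they were Surf1 (0.997), Mrrf (0.991) and Pop7 (0.988). The differences of these 12 genes between genotypes ran from -0.08 to 0.10.

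**Figure D5:**
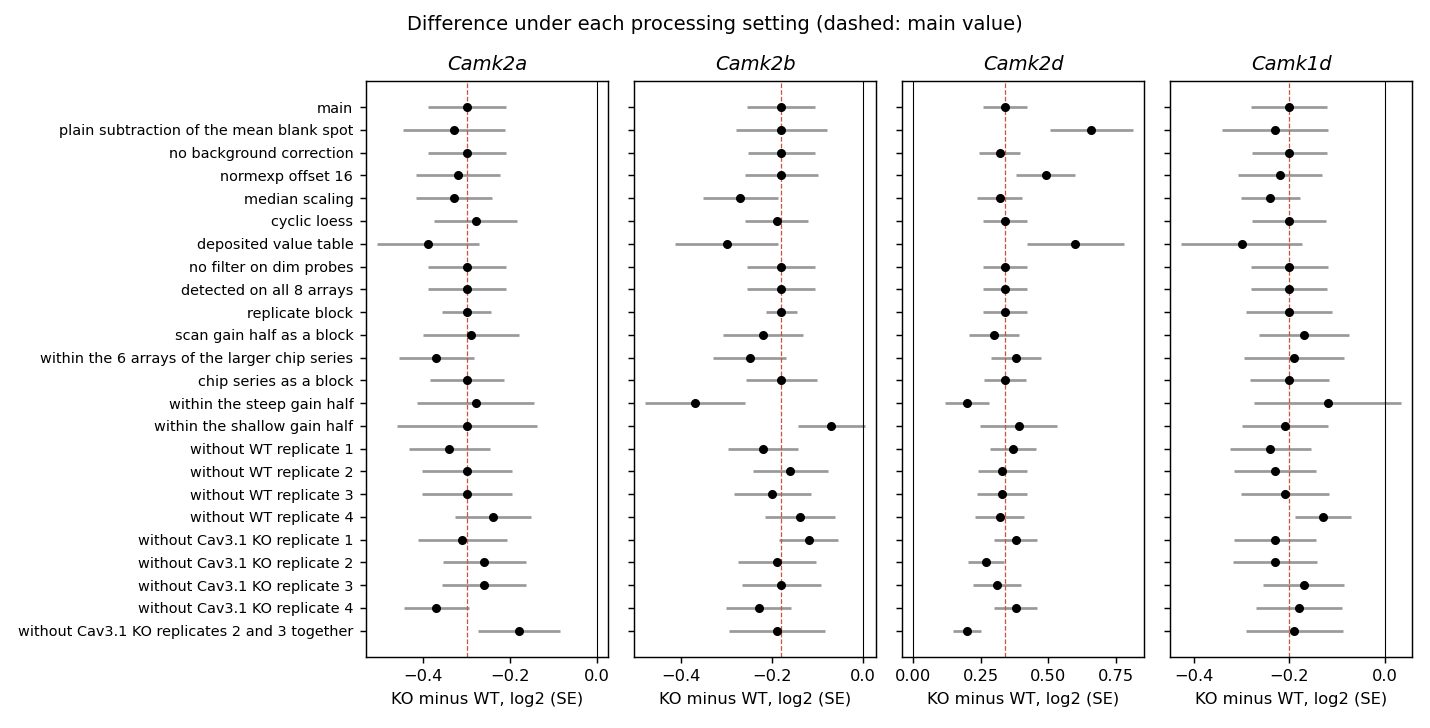
Cav3.1 KO minus WT (horizontal axes, log2, bars are SE) for the 4 genes with an unadjusted p under 0.05, under the main processing and 23 alternatives (rows). Each gene stays on 1 side of 0 in every row. Differences lie between -0.39 and -0.18 for Camk2a and between -0.37 and -0.07 for Camk2b. For Camk2d they lie between 0.20 and 0.66, and for Camk1d between -0.30 and -0.12. Rows that change only the probes tested, or that add replicate number or chip series as a block, keep the main difference.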

How the data were processed

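The scanner output deposited for each array gives a median spot intensity for the dye Cy5, not normalised, per the file headers. Another intensity, headed as background, tracked the brightness of its own spot (correlation of logarithms 0.994 to 0.996) and was not used. The authors' deposited value table gives linear intensity scaled to a median of 25 per array and served as an alternative. Its scaling was read from the values, and the sources used here do not name the upstream software.

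Normexp (offset 50) was fitted to the spot intensities, control spots included, and log2 values of 23473 probes were quantile normalised. Probes above the 95th percentile of blank spots on at least 4 of 8 arrays were tested, which removed 2239 dim probes. Another 84 were removed for a spot flagged at a scan gain. The comparison of genotypes used limma 3.58.1 under R 4.3.3 (group means, Benjamini-Hochberg adjustment over 21150 probes, threshold 0.05) and, for single genes, by exact two-sided permutation tests over 70 arrangements. The script was tested on simulated data. The number of arrays limits the precision.

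The CaM kinase genes and all lists were chosen with earlier results of these data known. The genes named are the 10 members, the 3 genes of smallest p in each list, and the 3 probes most like Camk2a, Camk2d and Camk4. Camk1 was added to the last group, the within-array pairs were added, and both followed a look at the values. Promoters are from RefSeq tables of GRCm38.p6. Probe and protein sequences were not used here.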

Additional observations from a re-analysis of the deposited data

Results flagged for a closer look

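Of 90 groups of 4 arrays examined for an array far from the other 3, 8 held one. Chance would flag about 1 in 20 independent groups. These groups share the same arrays, so the number flagged was not judged against chance. Camk1 was far above the others on WT replicate 2 (8.45, the others 8.02 to 8.06) and on Cav3.1 KO replicate 1 (8.75, the others 8.00 to 8.07). Ppp1cb stood at 11.69 on WT replicate 2 (the others 11.46 to 11.49) and at 11.46 on Cav3.1 KO replicate 1 (the others 11.75 to 11.77). On WT replicate 2, Mylk3 stood at 6.10 (the others 6.04) and Actn2 at 6.38 (the others 6.46 to 6.47). Nrgn stood at 11.24 on WT replicate 4 (the others 10.96 to 10.98) and Cacnb1 at 6.66 on WT replicate 1 (the others 6.88 to 6.90).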

How the results depend on the processing

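No CaM kinase gene passed the threshold under any of the 23 alternatives, and Camk2a, Camk2b, Camk2d, Camk1d and Camkk2 kept their direction in all. Part of this was fixed in advance. Alternatives that change only the probes tested, or that add replicate number or chip series as a block, keep the main difference. For Camk2d and Camk1d, whose groups did not overlap, leaving arrays out cannot turn the direction either. When 1 array at a time was left out, the differences ran from -0.37 to -0.24 for Camk2a, -0.23 to -0.12 for Camk2b, 0.27 to 0.38 for Camk2d, -0.24 to -0.13 for Camk1d, -0.14 to -0.03 for Camkk2, -0.12 to 0.16 for Camk1 and -0.02 to 0.04 for Camk1g. Over all alternatives the adjusted p ran from 0.12 to 0.738 for Camk2d and from 0.174 to 0.819 for Camk2a. Direction turned within the 4 arrays of shallower scan slope, where the differences were -0.0021 for Camk1, -0.04 for Camk1g, -0.03 for Camk2g and 0.02 for Camk4, each against 1 WT array that was assumed to vary like the others. Within the 4 arrays of steeper slope they were 0.57 for Camk1 (unadjusted p 0.0428 by limma), 0.08 for Camk1g, 0.37 for Camk2g and -0.11 for Camk4, with 1 Cav3.1 KO array. It also turned for Camk1 without Cav3.1 KO replicate 1 (-0.12), for Camk1g without WT replicate 1 (-0.02) and for Camk4 without Cav3.1 KO replicate 1 (0.0033). The cause was not tested.

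The count of probes called over the whole array was 61, and it was 40 with median scaling, 31 from the deposited value table, 23 with scan slope as a block, 7 within the 6 arrays of the larger chip series, 17 without Cav3.1 KO replicates 2 and 3, and 16 to 49 with 1 array left out. Within the 4 arrays of steeper and the 4 of shallower scan slope limma called 0, with 2093 and 1422 probes at an unadjusted p under 0.05. The replicate number as a block gave 8 calls. Same-numbered arrays deviated with correlations of -0.115 to 0.011, and no WT array correlated best with the Cav3.1 KO array of its own number. Taken over all probes, these correlations cannot show whether same-numbered arrays were handled together. With this block the SE fell to 0.0566 for Camk2a and 0.0336 for Camk2b (adjusted p 0.273 for both). It rose to 0.0813 for Camk2d and 0.0898 for Camk1d (adjusted p 0.383 and 0.735). The fit with chip series as a block and the fits within scan slope were added after the data were seen. Dim probes, with spots under 2 times the blank level, limit what could be seen for Camk2d, Camk4 and Camk1g.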
